A study of Mus musculus with 2 samples.

Results

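The proteasome is the protease that removes proteins tagged with ubiquitin, and its subunits and regulators carry gene names that begin with Psm. Probes were taken by that name (Psma to Psmg followed by a digit) from 2 mouse expression arrays, which gave 69 of 41174 probes and 44 gene names. A probe was kept where it was well above background in the same channel on both arrays, as 63 of the 69 probes were, and a gene was read by its brightest kept probe. This left 42 of 16581 genes: 16 of the 20S core, 20 of the 19S cap, 4 activators, the regulator Psmf1, and Psmc3ip. Psmc3ip encodes a recombination factor that only shares the start of its name, and its log2 ratio of 0.06 did not pass the test. It is left out from here on, which leaves 41 proteasome genes. The other 2 names were Psma8, a testis subunit, and Psmb8, whose probes were not well above background in either channel on either array.

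Both arrays compared the same pair of conditions in G1E-ER-GATA-1 cells. G1E is a mouse erythroid line without GATA-1, a transcription factor that red cells need to mature. In this derivative GATA-1 is fused to an oestrogen receptor domain and becomes active with β-estradiol. All cells carried that background and were given 24 h of β-estradiol after transfection, either with control siRNA, labelled red (Cy5), or with siRNA against ETO2, labelled green (Cy3). ETO2, the product of Cbfa2t3, is a corepressor that works with GATA-1. The labels number the arrays as replicates of a single line but do not say whether their RNA came from separate cultures, so p-values measure only the spread between these arrays, which may be technical. The labels name the tissue erythroid and also call the cells ES cells. Of 7 embryonic stem cell markers, 5 were not well above background, the defining Pou5f1, Nanog and Sox2 among them.

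The proteasome works in parts. The 20S core is a barrel of alpha rings, which gate the entrance, and beta rings, which hold the proteolytic sites. The 19S cap binds ubiquitin chains, removes them, and unfolds the substrate with a ring of ATPases. Activators of the PA28 and PA200 families can take the place of the cap and open the barrel without ATP. In maturing red cells the ubiquitin-proteasome system is known for clearing organelle and ribosomal proteins that a red cell does not keep.

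Values are given as normalized signals in scanner units and as log2 ratios of ETO2 siRNA over control siRNA, so that a value below 0 is lower after ETO2 siRNA. Calls are at an adjusted p under 0.05 in limma, with Benjamini-Hochberg adjustment over all 16581 genes. The targeted gene Cbfa2t3 read -0.42 ± 0.048 in log2 ratio (SD over 2 arrays; limma adjusted p = 9.2e-05). The median spot signal lay between 77.5 and 105 scanner units in the 4 channel readings, and 471 and 495 spots of the 2 arrays were saturated in the control channel. Because the dyes were not swapped, an effect of the dye on a probe and an effect of the siRNA cannot be told apart. Of 13 measured erythroid marker genes, 12 were called higher, 3 of them with a saturated control channel, and Gata1 was lower (-0.18). Because G1E is without GATA-1 and these cells carry the fusion, Gata1 is no plain marker here. Which transcript its probe reads was not tested. Among 5 measured mast cell genes, Kit (-0.98) and Hdc (-1.38) were lower and Mcpt4 (0.49) was higher, while 2 of 7 listed macrophage and granulocyte genes were measured and neither was called. The part of these shifts in the proteasome values was not tested.

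After loess within each array, which removes any trend of the ratio with brightness, proteasome genes split in direction and showed no common shift. Of the 41 genes, 10 were called higher (24.4%) and 11 lower (26.8%), against 18.4% higher and 22.3% lower among all genes tested (limma adjusted p under 0.05). The 10 include Psma2 and Psmb4, whose control channel was saturated on both arrays, so that no direction is measured for them. With saturated probes left out, 8 of 37 genes were called higher and 11 lower. In all, 51.2% of the proteasome genes were called, against 40.7% of all genes. Proteasome genes are bright on these arrays, and among the 5615 genes at least as bright as the dimmest of them 54.1% were called. The members' median log2 ratio was -0.04, beside -0.02 over all genes, and the range ran from -0.56 for Psme2 to 0.66 for Psmd13. The sizes were small: none of the 41 reached 1.5-fold on both arrays, a limit that 1.33% of all genes passed upward and 1.24% downward. The ratios had 1 sign on both arrays in 36 of the 41 (15 above 0 and 21 below 0), as in 79% of all genes. In bulk RNA such as this, fewer cells with a transcript and less of it per cell cannot be told apart.

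By class, the 20S core had 4 genes called higher and 5 lower of 16, with a median log2 ratio of -0.07. The 19S cap had 4 higher and 3 lower of 20, with a median of -0.0016. The 4 activators were all called, 1 higher and 3 lower, with a median of -0.32. The cap is counted by gene name, so its 20 genes include 3 base assembly chaperones, none of them called. Called genes made up 56.2% of the core and 35% of the cap so counted, beside 40.7% of all genes. Among all genes at least as bright as the dimmest proteasome gene the share was 54.1%. The calls depended on how the signals were corrected. On the scanner software's processed signals, which differ in both background and dye correction, 5 genes were called higher and 1 lower, which is 14.6% of the proteasome genes beside 14.8% of all genes. With median centring in place of loess, which leaves in place any trend of the ratio with brightness, 1 was called higher and 38 lower and the median was -0.63, while the median of all genes was itself -0.31. That is 95.1% of the proteasome genes called, beside 68% of all genes (464 higher and 10807 lower).

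**Figure D1:**
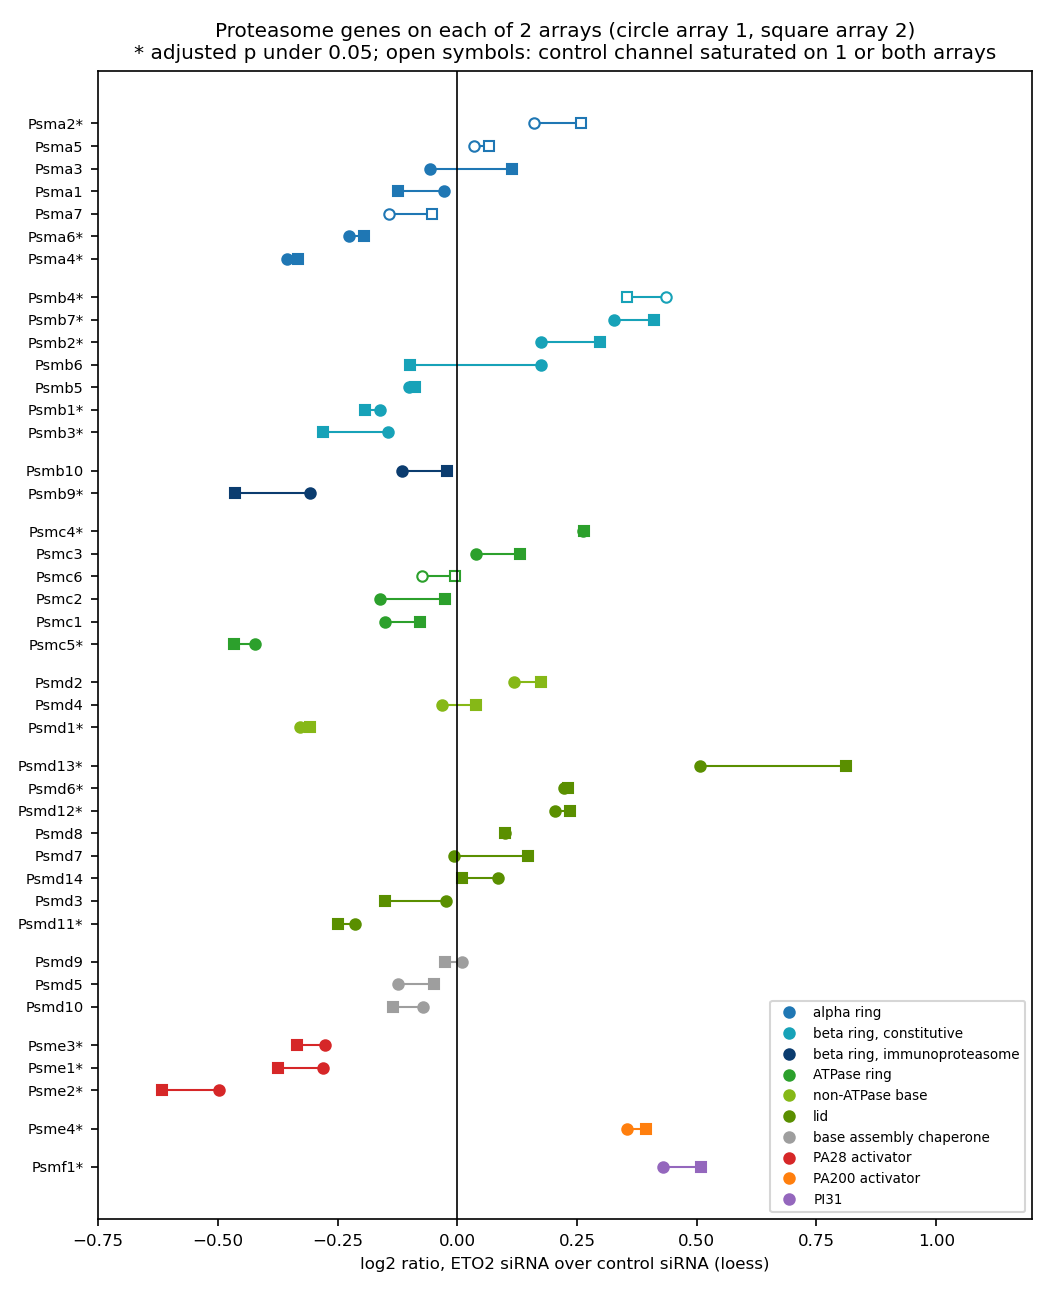
Log2 ratio of ETO2 siRNA over control siRNA (x axis) for the 41 proteasome genes (y axis, grouped by place in the complex), with a circle for array 1, a square for array 2 and a line joining them. Open symbols mark 5 genes whose control channel was saturated on at least 1 array, and asterisks mark the 21 genes past the threshold; the 3 PA28 genes lie below 0 and Psme4, Psmf1 and Psmd13 above 0 on both arrays.

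The activators divided by family: the PA28 genes fell and the PA200 gene rose. Psme1 and Psme2 encode the alpha and beta subunits of the cytoplasmic PA28 ring, which interferon gamma is known to induce and which shapes the peptides shown on MHC class I. Psme2 (NM_011190) read 43822 in control and 31027 after ETO2 siRNA on array 1, and 42206 and 27521 on array 2. Signals were not scaled between arrays, so readings are compared within an array. After ETO2 siRNA Psme2 was below control on each array, and 79% of all genes likewise had 1 sign on both arrays. The log2 ratio of Psme2 was -0.56 ± 0.084 (SD, n = 2), or 1.47-fold lower (limma adjusted p = 9.1e-06), the lowest value of all proteasome genes. A second Psme2 probe at another place in the transcript gave -0.55, so that the 2 probes were 0.010 apart.

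Psme1 (NM_011189) fell in the same way but by less. It read 30698 in control and 25278 after ETO2 siRNA on array 1, and 31965 and 24656 on array 2. The log2 ratio was -0.33 ± 0.067, or 1.25-fold lower (limma adjusted p = 8.1e-04). Psme3 (NM_011192), the nuclear PA28 gamma that forms a ring of its own, read 12127 and 12661 in control against 10021 and 10034 after ETO2 siRNA. That is a log2 ratio of -0.31 ± 0.043, or 1.24-fold lower (limma adjusted p = 0.0012). The 3 PA28 genes kept their sign under every scaling tried. Median centring lowered the median of the 41 proteasome genes to -0.63, so a kept sign below 0 says little there. On the processed signals Psme2, Psme1 and Psme3 read -0.38, -0.19 and -0.13, and only Psme2 was called.

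Psme4 (NM_134013) encodes PA200, a large nuclear activator known for the breakdown of acetylated histones in germ cells. It read 22019 in control and 28154 after ETO2 siRNA on array 1, and 19991 and 26290 on array 2. On each array the reading after ETO2 siRNA was above control, opposite to the PA28 genes. The log2 ratio was 0.37 ± 0.029, or 1.30-fold higher (limma adjusted p = 2.5e-04), and it was 0.36 on the processed signals but -0.24 with median centring, which is 0.07 above that scaling's median of all genes. Its probes did not give 1 value: the other 3 read 0.25, which was called higher, 0.09 and -0.07. Within each array the PA28 genes stood below Psme4. The difference of log2 ratios from Psme4 was -0.85 and -1.01 for Psme2, -0.63 and -0.77 for Psme1, and -0.63 and -0.73 for Psme3 on arrays 1 and 2. These differences were not tested, since an exact sign permutation of 2 arrays cannot go below a two-sided p of 0.5.

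**Figure D2:**
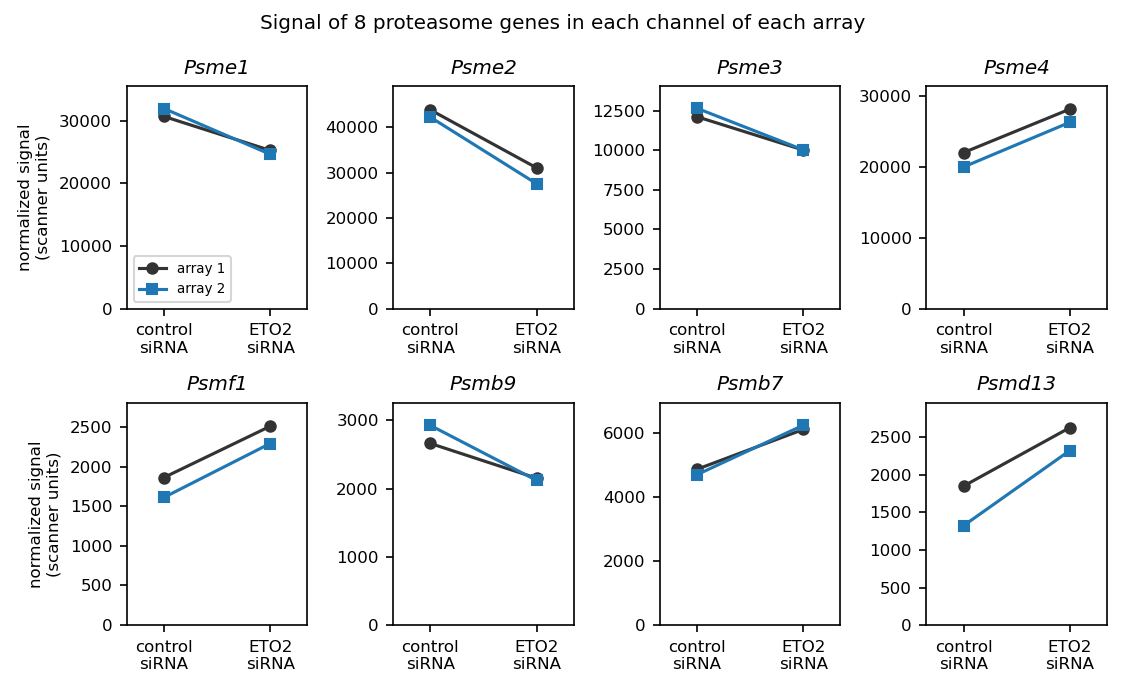
Normalized signal in scanner units (y axis, linear from 0) of 8 proteasome genes in the control siRNA and ETO2 siRNA channels (x axis), with a black line for array 1 and a blue line for array 2. In Psme1, Psme2, Psme3 and Psmb9 both lines go down toward ETO2 siRNA, and in Psme4, Psmf1, Psmb7 and Psmd13 both go up; panels have their own scales and are not to be compared in height.

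The probe sequences show what was measured for the genes at the ends of the range and for Psmc5, whose probes disagree. The 60-base sequences are given as in the array file, 5′ to 3′ in lower case, and capitals mark a stop codon where the probe reaches the end of the coding sequence.
Psme2, brighter probe: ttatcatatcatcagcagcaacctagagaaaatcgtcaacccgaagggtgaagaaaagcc
Psme2, second probe: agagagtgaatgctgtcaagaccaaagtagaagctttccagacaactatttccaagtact
Psmd13: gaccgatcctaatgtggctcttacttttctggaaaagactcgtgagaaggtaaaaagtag
Psmf1, brightest probe: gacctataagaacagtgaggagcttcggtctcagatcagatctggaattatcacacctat
Psmb9: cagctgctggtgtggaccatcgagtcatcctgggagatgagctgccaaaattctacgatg
Psmc5, brighter probe: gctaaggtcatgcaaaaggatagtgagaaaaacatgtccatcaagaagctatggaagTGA
Psmc5, second probe: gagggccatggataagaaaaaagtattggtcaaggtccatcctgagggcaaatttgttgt

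Psmf1 encodes PI31, a protein first described as an inhibitor of the 20S core and also known as an adaptor for proteasome transport. It rose. Psmf1 (NM_144889) read 1866 in control and 2514 after ETO2 siRNA on array 1, and 1614 and 2296 on array 2. Each array gave a higher reading after ETO2 siRNA. The log2 ratio was 0.47 ± 0.055, or 1.38-fold higher (limma adjusted p = 3.8e-05). The other 2 probes read 0.35 and 0.26 and were also called higher, which made Psmf1 the only gene among these with 3 probes called in 1 direction. On the processed signals it was 0.58 and still called, and median centring put it at 0.01, which is 0.32 above the median of all genes.

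In the alpha rings, 1 of 7 genes was called higher and 2 lower, with a median of -0.08. That is 42.9% called, against 40.7% of all genes and 54.1% of those at least as bright as the dimmest proteasome gene. Psma4 (NM_011966) read 12229 and 10908 in control against 9555 and 8662 after ETO2 siRNA. This was a log2 ratio of -0.34 ± 0.016, or 1.27-fold lower (limma adjusted p = 4.8e-04), and its second probe, at -0.16, was not called. Psma6 was 1.16-fold lower (log2 ratio -0.21 ± 0.022). Psma2 stood at 0.21 with its control channel saturated on both arrays, so it is counted as called but given no fold. With median centring less the median of all genes it read -0.14. Psma5 was also saturated in control on both arrays and Psma7 on 1 array, and Psma1, Psma3, Psma5 and Psma7 lay between -0.10 and 0.05 without passing.

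Beta ring genes moved in both directions. Among 7 constitutive beta genes 3 were called higher and 2 lower. The share called was 71.4%, against 40.7% of all genes and 54.1% of those at least as bright as the dimmest proteasome gene. Psmb7, which carries the trypsin-like site, read 4864 in control and 6106 after ETO2 siRNA on array 1, and 4695 and 6239 on array 2. Its log2 ratio was 0.37 ± 0.058, or 1.29-fold higher (limma adjusted p = 3.1e-04). On the processed signals it was 0.60 and called, and with median centring -0.16, which is 0.15 above the median of all genes. Psmb2, a subunit without a catalytic site, was 1.18-fold higher (0.24 ± 0.088). Psmb4, another noncatalytic subunit, stood at 0.40 with a saturated control channel on both arrays and has no fold.

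The remaining constitutive beta genes were lower or not called. Psmb3 (-0.21 ± 0.096) and Psmb1 (-0.18 ± 0.023) fell, by 1.16-fold and 1.13-fold, but a second Psmb3 probe read -0.03. Psmb5, with the chymotrypsin-like site, read -0.09 (limma adjusted p = 0.25). Psmb6, with the caspase-like site, read 0.18 on array 1 and -0.10 on array 2, the second widest gap between arrays among these genes after Psmd13.

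The immunoproteasome replaces the 3 catalytic beta subunits by interferon-induced relatives: Psmb9 for Psmb6, Psmb10 for Psmb7 and Psmb8 for Psmb5. Psmb9 (NM_013585) fell. It read 2661 and 2925 in control against 2152 and 2119 after ETO2 siRNA, lower on each array. The log2 ratio was -0.39 ± 0.11, or 1.31-fold lower (limma adjusted p = 2.9e-04). Psmb10 read -0.07 ± 0.066 and was not called. Both Psmb8 probes read between 64 and 71 scanner units in all 4 channel readings and were not well above background. Psmb9 minus Psmb6 gave a difference of log2 ratios of -0.48 on array 1 and -0.37 on array 2 (-0.42 ± 0.081). Psmb10 minus Psmb7 gave -0.44 and -0.43. These differences were not tested either.

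Psmb8 and Psmb9 lie in the MHC region of chromosome 17 beside the peptide transporters, with no protein-coding gene between Psmb9 and Tap1 in the RefSeq gene table of GRCm38.p6. The neighbours did not fall with Psmb9: Tap1 (0.22) and Tap2 (0.18) were called higher. Tap1 was dim, at 137 to 168 scanner units in the 4 channel readings, and neither gene was read under other processing. Of 9 measured genes on a list of antigen processing and interferon genes, 2 were called higher and 4 lower (66.7% called, against 40.7% of all genes). The MHC class I light chain B2m (-0.46), the heavy chains H2-D1 (-0.31) and H2-K1 (-0.26), and the factor Irf1 (-0.18) were lower, while Irf7 (-0.07) was not called. Psme1 and Psme2 are near neighbours on chromosome 14, with 1 protein-coding gene between them.

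In the 19S cap the ATPase ring had 1 gene higher and 1 lower of 6 (33.3% called, against 40.7% of all genes). Psmc5 (NM_008950), the ATPase Rpt6, read 10162 in control and 7582 after ETO2 siRNA on array 1, and 10041 and 7270 on array 2. By its brighter probe, which ends at the stop codon, the log2 ratio was -0.44 ± 0.031, or 1.36-fold lower (limma adjusted p = 5.7e-05). Its second probe read -0.09 on array 1 and 0.08 on array 2, and averaging the probes gave -0.23. The fall of Psmc5 therefore rests on 1 of 2 probes. Psmc4, the ATPase Rpt3, was 1.20-fold higher (0.26 on array 1 and 0.27 on array 2; limma adjusted p = 0.0033), and its second probe read 0.32 and was also called. With median centring Psmc4 read -0.30, which is 0.0098 above the median of all genes. Psmc1, Psmc2, Psmc3 and Psmc6 lay between -0.11 and 0.09 and were not called, with Psmc6 saturated in control on both arrays.

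Outside the ATPases the base of the cap holds scaffold and ubiquitin-binding subunits. Psmd1, the scaffold Rpn2, read 7907 and 6913 in control against 6297 and 5587 after ETO2 siRNA. Its log2 ratio was -0.32 ± 0.015, or 1.25-fold lower (limma adjusted p = 8.8e-04). Psmd2, the scaffold Rpn1, read 0.15 and was not called by its brightest probe, while a second probe read 0.43 and was called higher. Psmd4, the ubiquitin receptor Rpn10, stood at 0.0044. Of the 3 genes for base assembly chaperones, Psmd5, Psmd9 and Psmd10, none was called by limma (0 also at an unadjusted p under 0.05), with log2 ratios from -0.10 to -0.01.

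The lid, which holds the deubiquitinase, had 3 genes higher and 1 lower of 8, with a median of 0.08. That is 50% called, against 40.7% of all genes and 54.1% of those at least as bright as the dimmest proteasome gene. Psmd13 (NM_011875), the lid subunit Rpn9, read 1852 in control and 2631 after ETO2 siRNA on array 1, and 1325 and 2326 on array 2. Both arrays gave a higher reading after ETO2 siRNA, but the ratio differed between them, at 0.51 and 0.81. Its mean log2 ratio was 0.66 ± 0.22, or 1.58-fold higher (limma adjusted p = 7.3e-06), the highest value of all proteasome genes and the widest gap between arrays. It was called higher in every setting that gave a test, with a range from 0.20 with median centring to 0.69 with an offset of 0. A single probe measured Psmd13.

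Smaller changes were called in 3 other lid genes. Psmd6 (Rpn7) was 1.17-fold higher at 0.23 ± 0.0068 and Psmd12 (Rpn5) 1.16-fold higher at 0.22 ± 0.022, but with median centring less the median of all genes they read -0.06 and -0.09. Other probes of Psmd12 read 0.40, which was called higher, and -0.01. Psmd11 (Rpn6) was 1.17-fold lower (-0.23 ± 0.026). The deubiquitinase Psmd14 read 0.05 by its brightest probe without passing, while a second probe read 0.28 and was called higher. Psmd3, Psmd7 and Psmd8 lay between -0.09 and 0.10 and were not called.

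**Figure D3:**
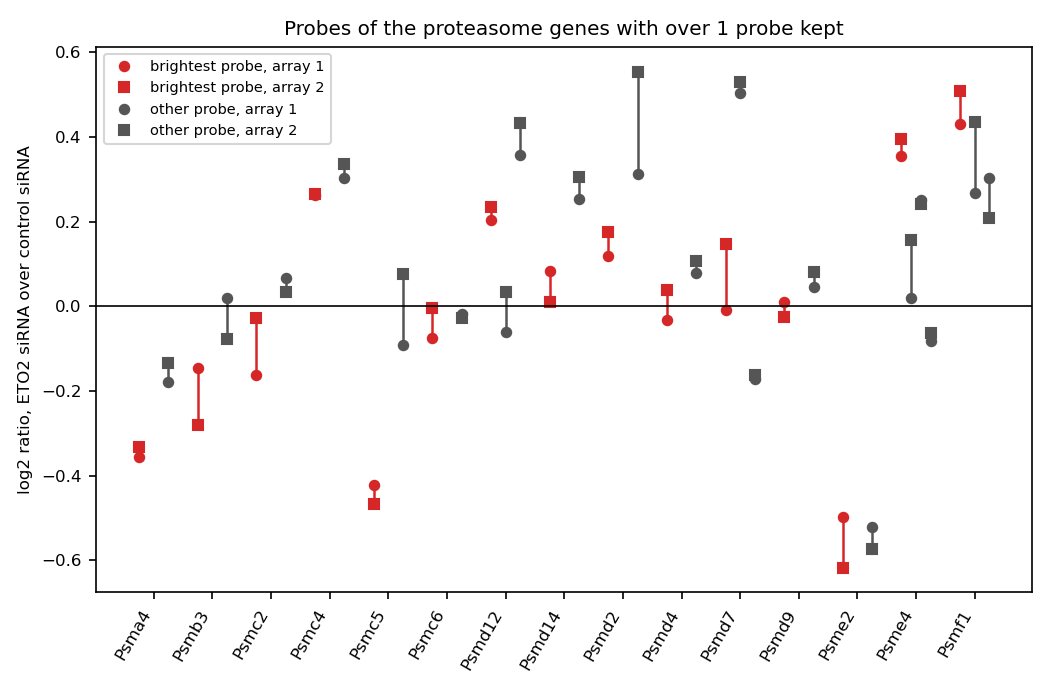
Log2 ratio of ETO2 siRNA over control siRNA (y axis) for every kept probe of the 15 proteasome genes with more than 1 kept probe (x axis), with the brightest probe in red and the others in grey, and circles and squares for arrays 1 and 2. The Psme2 probes lie together, at means of -0.56 and -0.55, whereas those of Psmd7 spread from -0.17 to 0.52.

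Probes of a gene often gave different ratios. Over the genes with more than 1 kept probe, 16 with Psmc3ip included, the median range between the probes' mean log2 ratios was 0.19. All probes of a gene had the same sign in 11 of the 16. The exceptions were Psmc2, Psmd7, Psmd9, Psmd12 and Psme4. Psmd7 (Rpn8), the partner of Psmd14 in the lid, was the only gene with probes called in both directions. Its brightest probe read 0.07 and was not called, another read 0.52 and was called higher, and the dimmest read -0.17 and was called lower (limma adjusted p = 0.047 over all probes).

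Genes around the proteasome were called in both directions. Of 35 measured genes on a list of assembly factors, ubiquitin receptors, shuttles, ubiquitin genes and regulators of subunit transcription, 9 were called higher and 9 lower (51.4% called, against 40.7% of all genes), with a median of 0.02. These genes too are mostly bright, with a median log2 signal of 12.9 beside 9.29 over all genes. Among all genes at least as bright as the dimmest proteasome gene 54.1% were called. Pomp, the chaperone that matures the 20S core, was at least 1.26-fold lower after normexp and loess, its control channel being saturated on both arrays (limma adjusted p = 6.5e-04). Nfe2l1, the factor that raises subunit transcription when proteasome activity drops, was 1.23-fold lower (-0.30; limma adjusted p = 0.0017). Fbxo7, a ubiquitin ligase subunit that binds PI31, was 1.20-fold higher (0.27). The ubiquitin genes Ubb and Rps27a and the small lid subunit Sem1 stood above 0, but the control channel was saturated on each array; they count among the calls and have no fold. With the genes whose probes were saturated left out, 5 of 30 were called higher and 8 lower. On the processed signals 5 of 35 were called higher and 0 lower (4 lower at an unadjusted p under 0.05 in limma). The calls of Pomp, Nfe2l1 and Fbxo7 were lost there, and Pomp read -0.25, a smaller change than the bound above.

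Assembly of the alpha rings is started by chaperones now named Psmg, which the array file lists under older names and which the name rule therefore did not take. Psmg3, listed as 1810042K04Rik, read 0.33 ± 0.017 (limma adjusted p = 6.5e-04). Psmg1, listed as Dscr2, and Psmg2, listed as Tnfsf5ip1, read 0.16 (adjusted p = 0.048) and 0.15 (adjusted p = 0.078) in limma, and a second Psmg2 probe read -0.17. These genes are outside the counts given for the 41 genes.

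The promoters of 3 called genes, a PA28 gene, the immunoproteasome gene Psmb9 and the PA200 gene, are shown with a motif that each holds. Each runs from 250 bases before to 30 after the RefSeq start site in GRCm38.p6, on the strand of the gene, with the matched motif in capitals. They are Psme1 at chr14:55578244-55578523 on the plus strand with an interferon-response-like motif, Psmb9 at chr17:34187301-34187580 on the minus strand with a CCAAT box, and Psme4 at chr11:30771525-30771804 on the plus strand with an antioxidant-response core.
Psme1: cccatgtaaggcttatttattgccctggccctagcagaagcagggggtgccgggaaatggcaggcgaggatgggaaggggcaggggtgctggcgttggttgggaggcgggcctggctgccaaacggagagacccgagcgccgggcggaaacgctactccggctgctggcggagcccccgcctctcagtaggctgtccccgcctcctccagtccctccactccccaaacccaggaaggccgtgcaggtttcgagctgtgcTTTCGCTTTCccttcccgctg
Psmb9: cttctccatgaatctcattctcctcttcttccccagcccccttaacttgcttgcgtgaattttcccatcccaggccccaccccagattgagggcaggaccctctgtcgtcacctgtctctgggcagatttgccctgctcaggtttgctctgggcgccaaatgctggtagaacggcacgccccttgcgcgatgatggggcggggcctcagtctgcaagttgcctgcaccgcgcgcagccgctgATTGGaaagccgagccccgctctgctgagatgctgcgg
Psme4: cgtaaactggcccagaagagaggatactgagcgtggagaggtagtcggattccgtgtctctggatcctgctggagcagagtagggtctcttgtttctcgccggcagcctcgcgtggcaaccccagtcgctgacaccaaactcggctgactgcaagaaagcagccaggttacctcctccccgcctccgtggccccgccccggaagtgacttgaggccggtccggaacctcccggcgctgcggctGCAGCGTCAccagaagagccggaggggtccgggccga

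Motifs were searched on both strands in windows from 250 before to 50 after the start, which the RefSeq table holds for 35 of the 41 genes. Shares of the proteasome genes are per gene, and the shares set beside them are per promoter. The 35 genes have 38 promoters, and each motif was in as many of these promoters as genes. The interferon-response-like motif, 2 copies of GAAA with 2 bases between them, was in 4 genes (11.4%), beside 3.4% of all 32851 promoters in the table: Psmb3, Psmd4, Psmd9 and Psme1. In Psme1 its first base is base 10 of the transcript counted from the start site. The gamma-activated-site-like motif TTCNNNGAA was in 1 gene (2.9%, beside 8.3%), Psmd2. CCAAT was in 13 genes (37.1%, beside 37.4%), of which 4 were called lower (Psma6, Psmb3, Psmb9 and Psme3), Psma2 was called higher with a saturated control channel, and 8 were not called. The antioxidant-response core TGACNNNGC, a sequence that factors of the Nfe2l family are known to bind, was in 6 genes (17.1%, beside 12.4%), of which Psmd12 and Psme4 were called higher and 4 were not called. GATA motifs (GATA with A or T before it and A or G after it) were in 5 genes (14.3%, beside 29.8%), of which Psmf1 was called higher and the other 4 (Psmc6, Psmd8, Psmd9 and Psmd14) were not called. The 4 genes with the interferon-response-like motif moved differently, with Psmb3 and Psme1 lower and Psmd4 and Psmd9 not called. A match is a run of letters in the window, and binding was not measured.

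**Figure D4:**
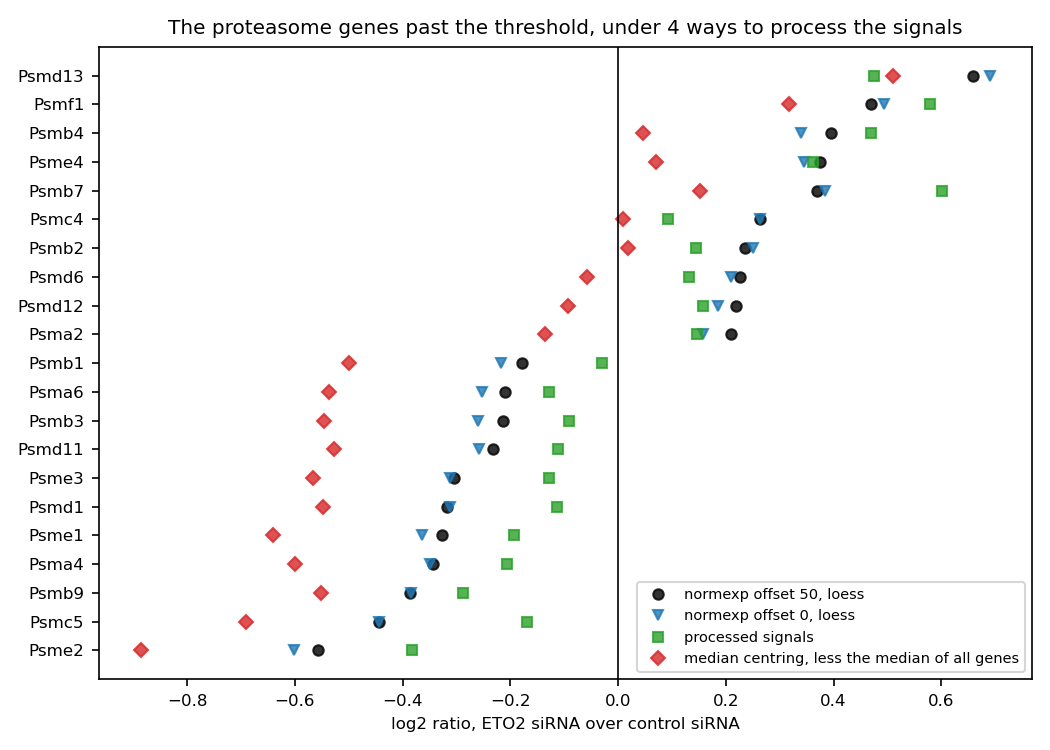
Log2 ratio of ETO2 siRNA over control siRNA (x axis) of the 21 called proteasome genes (y axis) under 4 ways to process the signals, each with its own symbol and colour, and median centring shown less the median of all genes. Psmd13 stays above 0 and Psme2 below 0 under each, while the processed signals draw most of the lower genes toward 0 and median centring moves Psma2, Psmd6 and Psmd12 below 0.

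Of the 21 called genes, Psmd13 and Psme2 were called in the same direction in each of the 10 other settings that gave a test. In all of these settings 13 genes kept their sign: the 11 called lower, Psmd13 and Psmf1. Several settings left the ratios unchanged, and the deposited log ratio equals the processed signals, so these are not 10 separate checks. Median centring lowered the median of the 41 proteasome genes to -0.63, which by itself holds the genes called lower below 0. On the processed signals the calls that remained were Psmd13, Psmb7, Psmb4, Psme4 and Psmf1 above 0 and Psme2 below 0.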

How the data were processed

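RNA of ETO2 siRNA cells (Cy3) and of control siRNA cells (Cy5) was hybridised together on each of 2 Agilent arrays. Spot intensity was read with Feature Extraction 9.1.3.1, per the file headers. The deposited intensity of each spot and of its background is on a linear scale without normalization. The log10 ratio that the authors deposited, red over green, derives from processed signals that the scanner software had corrected for background and dye, per the file headers. The authors' deposited value table held the same log10 ratio to within 0.0042, with a column median of 0 on each array. The sources used here do not state how the probes were designed or on which genome build. One spot line of the second array ends in a lone carriage return and was read as a line.

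Mean signals were corrected with normexp (offset 50) against local median background in limma 3.58.1 (R 4.3.3) and normalized by loess within each array, with control and outlier spots at weight 0. Ratios were turned to ETO2 siRNA over control siRNA in log2. Probes well above background on both arrays in the same channel were kept, spots of a probe were averaged, and a gene was read by its brightest kept probe. The 2 arrays leave 1 residual degree of freedom, to which eBayes brought a prior SD of 0.0905 worth 13.6 degrees of freedom, so that every adjusted p rests on the shared spread. Tests were two-sided, with Benjamini-Hochberg adjustment over all genes, and no block was needed because each ratio holds both conditions. The number of arrays limits the precision. Where a channel was saturated on both arrays, a fold is given as a bound or not at all. Promoters are RefSeq's, for GRCm38.p6.

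The genes named were Psmb5 to Psmb10, Psme, Psmf and Psmg, up to 5 largest changes past the threshold in each other family, genes whose probes differ in sign, and from the related list the 6 largest changes with Pomp, Nfe2l1 and Fbxo7; the second probes of Psmd2 and Psmd14 were added after their values were seen. Some genes of this rule and of the lists are not reported here but enter the counts and medians. The members and lists were chosen with earlier results of these data known. On simulated arrays with 16581 genes, 74% of 50 genes changed by 1.2-fold were recovered and 100% of those changed by 1.5-fold, with 0.989% of unchanged genes called. The simulated noise was independent between spots and of a single SD, without dye effects of single probes. These rates therefore do not measure the share of false calls on the real arrays.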

Additional observations from a re-analysis of the deposited data

How the results depend on the processing

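With 2 arrays of 1 dye orientation, all p-values rest on the shared spread, and dye and siRNA effects of a probe cannot be told apart. Aquantile scaling, no filter on dim probes, a filter in both channels, probes tested singly and an intensity trend kept the counts within 1.5 times and every call of the 41 genes. The largest changes came with the processed signals, which differ in background and dye correction at once, and with median centring; their cause was not tested. The ratio within each array is already the paired comparison, so no further replicate block was fitted.

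With offset 0 the medians were -0.075 for the proteasome genes, -0.095 for the core and 0.0098 for the related genes, and 2 cap genes were higher. On the processed signals, and equally with the deposited log ratio, proteasome genes were called higher in 5 cases and lower in 1 (median 0.046), core genes in 2 and 0 (median 0.019), and cap genes in 1 and 0 (median 0.086). There 1 activator was lower (median -0.16), and related genes were 5 higher and 0 lower (median 0.0038). At an unadjusted p under 0.05 in limma, the lower counts were 2 for the core, 0 for the cap and 4 for the related genes.

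With median centring 1 proteasome gene was higher and 38 lower (median -0.63), 0 and 15 of the core (median -0.66), 1 and 19 of the cap (median -0.58), 0 activators higher (median -0.91), and 1 and 30 of the related genes (median -0.50). At an unadjusted p under 0.05 in limma 0 core genes and 0 activators were higher. All genes then split into 464 higher and 10807 lower (68% called, beside 95.1% of the proteasome genes). This setting turned the sign of Psmc3 (-0.49), Psmc4 (-0.30), Psmd12 (-0.40), Psmd14 (-0.56), Psmd6 (-0.37), Psmd7 (-0.49), Psmd8 (-0.47), Psmd2 (-0.44), Psmd4 (-0.61), Psma2 (-0.45), Psma3 (-0.58), Psma5 (-0.60), Psmb2 (-0.29), Psmb4 (-0.26), Psmb6 (-0.58), Psmb7 (-0.16) and Psme4 (-0.24). It also turned Ddi2 (-0.44), Ecpas (-0.44), Fbxo7 (-0.25), Nfe2l2 (-0.56), Nfya (-0.47), Nfyc (-0.014), Ngly1 (-0.37), Rps27a (-0.32), Sem1 (-0.24), Uba1 (-0.45), Ubb (-0.11), Ube3c (-0.20), Ufd1 (-0.50), Usp14 (-0.31) and Zfand5 (-0.47). Taken less the median of all genes, an alternative chosen after seeing the data, it turned Psmd12 (-0.093), Psmd6 (-0.057) and Psma2 (-0.14).

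With saturated probes left out the medians were -0.069 for the proteasome genes, -0.085 for the core (2 higher) and -0.016 for the related genes (5 higher). With the mean of all probes they were -0.022 for the proteasome genes and 0.039 for the cap, and Ubqln1 turned to 0.055. Other probes, an alternative added after seeing the data, turned Psmd12 (-0.013), Psmd7 (-0.17) and Psme4 (-0.072). A single array, which gives no test, put the medians at -0.025 and -0.031 for the proteasome genes, -0.071 and -0.078 for the core, 0.0029 and -0.015 for the cap, and -0.0071 and -0.0028 for the related genes.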

Other observations

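Other names in the array file now carry Psm symbols. Psme3ip1, which encodes a protein that binds PA28 gamma and is listed as 2310065K24Rik, read -0.37 by its brightest probe (limma adjusted p = 3.4e-04), while its other 2 probes read -0.03 and 0.06. Psmb11, the beta subunit of the thymus listed as 5830406J20Rik, had 1 of 2 probes kept, through the control channel alone, at 77 to 83 scanner units in that channel, and its log2 ratio of -0.05 was not called.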
